A study of Chlorocebus aethiops with 12 samples.

Results

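ERRFI1, 3 Sprouty genes (SPRY1, SPRY2 and SPRY4) and both SPRED1 and SPRED2 were followed in COS-1 cells treated with dexamethasone (Dex). They were picked by transcript accession, as the non-control probes whose systematic name is one of 7 RefSeq accessions listed for these genes. Probes were found for 6 of the 7 accessions, 1 for each gene, among 32379 accessions on the array. The other SPRY1 variant, NM_005841, had no probe, so SPRY1 was read through NM_199327. SPRY2 is NM_005842, SPRY4 is NM_030964, SPRED1 is NM_152594, SPRED2 is NM_181784 and ERRFI1 is NM_018948. ERRFI1, SPRED1 and SPRED2 each had 2 probes and the Sprouty genes 1 each, which gives 9 probes in all.

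These proteins are feedback inhibitors of growth factor signalling. An activated receptor tyrosine kinase such as the epidermal growth factor receptor turns on RAS, which starts the RAF, MEK and ERK kinase cascade, and ERK activity in turn raises the transcription of several of its own inhibitors. ERRFI1 (also called MIG6) binds the kinase domain of the epidermal growth factor receptor and blocks it, Sprouty proteins restrain the steps between receptor and RAF, and SPRED proteins bring the RAS inhibitor neurofibromin to the membrane. Glucocorticoids are known to raise the ERRFI1 transcript in rat liver, where it was called gene 33.

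COS-1 cells come from the kidney of an African green monkey and grow like fibroblasts. All 12 cultures were transfected with the glucocorticoid receptor (GR), a transcription factor that is switched on by its ligand, and 6 of them also received MDFIC, a protein named for its MyoD family inhibitor domain. Starting 48 h after transfection, cells were exposed for 6 h to 100 nM Dex, a synthetic glucocorticoid, or to vehicle. The groups were GR+MDFIC cells with Dex, GR+MDFIC cells with vehicle, GR cells with Dex and GR cells with vehicle, with 3 biological replicates each. No group lacked transfected GR, and the labels give neither the share of cells that took up DNA nor the species of the constructs. A signal belongs to the RNA of a whole culture, so a change in every cell and a change in the share of responding cells cannot be told apart. The array is a one-colour Agilent design for human transcripts, so a probe reports how much monkey RNA bound to a human sequence.

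Each array had 43376 non-control spots, and the share well above background ran from 70.3% to 75.2%. The arrays lay on 3 slides. All vehicle arrays of GR cells and 1 Dex array of GR cells were on slide 1. Slide 2 held the other 2 Dex arrays of GR cells with 2 vehicle arrays of GR+MDFIC cells, and slide 3 held all 3 Dex arrays and 1 vehicle array of GR+MDFIC cells. The 75th percentile of the signal averaged 386 on slide 3, 868 on slide 2 and 850 on slide 1, which is why levels are given below as log2 signal relative to that percentile of the same array. Accessions entered by hand for checks are not annotated in the files. The one entered for MDFIC, NM_199072, lay between 4.88 and 5.86 on the 6 GR+MDFIC arrays, against -3.46 to -3.18 on the 6 GR arrays, and in GR+MDFIC cells it was itself lower with Dex, at a mean of 5.09 against 5.68 with vehicle (limma, Benjamini-Hochberg adjusted p = 0.0103). Any part of that in the results for GR+MDFIC cells was not tested. The one entered for GR with a probe, NM_001018077, exceeded background clearly on each of the 12 arrays and did not pass with Dex. All 3 entered for known GR targets rose with Dex in both kinds of cell. All 4 entered as transcripts of the kidney line were well above background on all 12 arrays, as was 1 of 2 entered for blood cells. When that was asked of a probe, 20241 of 32379 accessions were kept, so these entries do not identify the kind of cell.

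ERRFI1 was the strongest responder of the 6 genes. Dex raised it 4.24-fold in GR+MDFIC cells and 3.59-fold in GR cells. The processed signal of its brighter probe was 6490, 7075 and 7468 in GR+MDFIC cells with Dex, against 3832, 3215 and 1537 in GR+MDFIC cells with vehicle, the last of these on the dimmer slide 3. The signals in GR cells were 11821, 14265 and 14487 with Dex, against 3225, 4009 and 3710 with vehicle. Within each kind of cell every Dex array was brighter than every vehicle array, also before scaling.

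After scaling, ERRFI1 stood at 4.15, 4.23 and 4.17 (log2 relative to the 75th percentile) in GR+MDFIC cells with Dex, against 2.22, 2.09 and 2.00 with vehicle. GR cells had 3.89, 3.91 and 3.94 with Dex, against 1.99, 2.13 and 2.08 with vehicle. The 6 Dex arrays lay above the 6 vehicle arrays with no overlap, and replicates differed by far less than treatments. Group means were 4.18 ± 0.04 in GR+MDFIC cells with Dex and 2.10 ± 0.11 with vehicle (SD, n = 3 each). They were 3.91 ± 0.03 in GR cells with Dex and 2.07 ± 0.07 with vehicle (SD, n = 3 each).

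The fitted log2 difference of ERRFI1 with Dex was 2.08 ± 0.06 in GR+MDFIC cells (SE, limma, Benjamini-Hochberg adjusted p = 1.28e-07, 95% interval of the fold 3.85 to 4.66). The difference in GR cells was 1.84 ± 0.06 (SE, limma, Benjamini-Hochberg adjusted p = 3.62e-07, 95% interval of the fold 3.26 to 3.95). Ordered by the fitted difference among 23757 accessions tested, ERRFI1 was 85th from the top in GR+MDFIC cells and 59th in GR cells. With slide as a block the comparison rests on arrays of the same slide, 3 Dex arrays against 1 vehicle array on slide 3 and 1 Dex array against 3 vehicle arrays on slide 1. Those log2 differences were 2.19 in GR+MDFIC cells (limma, Benjamini-Hochberg adjusted p = 2.79e-05) and 1.82 in GR cells (limma, Benjamini-Hochberg adjusted p = 6.88e-05).

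The other ERRFI1 probe was dim and passed the filter only through its Dex arrays, so its values are a description and add no support. In GR+MDFIC cells it was well above background on all 3 Dex arrays, at -4.25, -4.16 and -3.76, against 1 of 3 vehicle arrays, at -5.76, -6.84 and -6.54. GR cells likewise had it well above background on all 3 Dex arrays, at -4.79, -4.71 and -4.79, against 1 of 3 vehicle arrays, at -6.59, -6.74 and -5.65. In each kind of cell 2 of the 3 vehicle arrays were thus not measured above background, so no size of change is given for this probe.

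**Figure D1:**
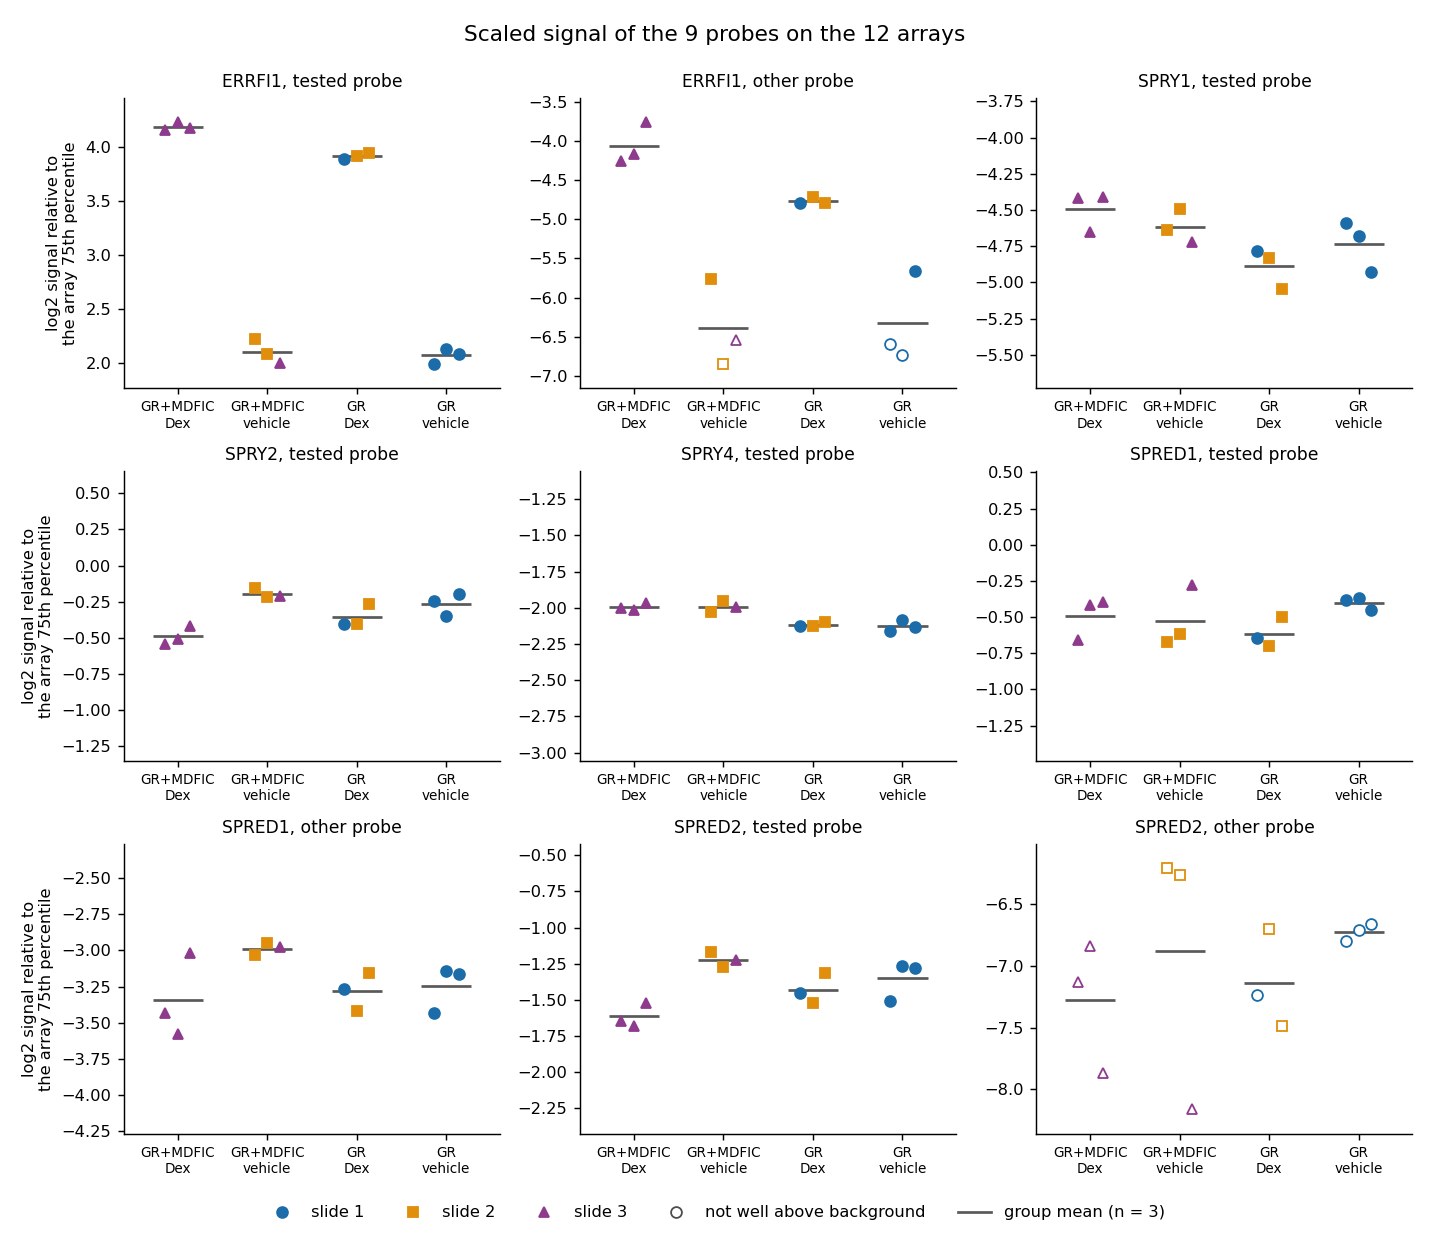
Scaled signal of all 9 probes on the 12 arrays (y axis: log2 signal relative to the array's 75th percentile; x axis: group; each point 1 array, shaped and coloured by slide, open where not well above background; lines: means of 3). Panels span different ranges of at least 2 log2 units; the tested ERRFI1 probe separates Dex from vehicle, while the other has only 1 filled point in each vehicle group.

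None of the Sprouty genes, whose proteins damp signalling below the receptors, was called higher with Dex. Over all accessions 6.6% rose in GR+MDFIC cells and 4.4% in GR cells, so no rise among so few genes is not a result about the family. SPRY2 fell with Dex in GR+MDFIC cells to 0.816 of the vehicle level, and SPRY1 and SPRY4 did not pass the test in either kind of cell. SPRY2 stood at -0.54, -0.50 and -0.42 in GR+MDFIC cells with Dex, against -0.16, -0.22 and -0.21 with vehicle. In GR cells it stood at -0.40, -0.40 and -0.26 with Dex, against -0.24, -0.35 and -0.19 with vehicle. The groups were apart in GR+MDFIC cells and overlapped in GR cells.

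The log2 difference of SPRY2 with Dex was -0.29 ± 0.06 in GR+MDFIC cells (SE, limma, Benjamini-Hochberg adjusted p = 0.0109) and -0.09 ± 0.06 in GR cells (SE, limma, Benjamini-Hochberg adjusted p = 0.466). Within slide 3 the difference in GR+MDFIC cells was -0.28, nearly the same size, but it no longer passed with slide as a block (limma, Benjamini-Hochberg adjusted p = 0.179). It was also smaller, -0.16, and did not pass with normexp background correction and quantile scaling together (limma, Benjamini-Hochberg adjusted p = 0.0832).

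SPRY4 had nearly the same mean with Dex as with vehicle in each kind of cell. Its means were -1.99 ± 0.03 in GR+MDFIC cells with Dex and -1.99 ± 0.04 with vehicle, and -2.12 ± 0.02 in GR cells with Dex and -2.12 ± 0.04 with vehicle (SD, n = 3 each). The 95% interval of its log2 difference with Dex ran from -0.09 to 0.09 in GR+MDFIC cells and from -0.08 to 0.10 in GR cells, the narrowest among the 6 genes. With slide as a block the intervals were wider, from -0.15 to 0.14 in GR+MDFIC cells and from -0.14 to 0.14 in GR cells.

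The SPRY1 probe was dim, with a processed signal between 14.6 and 35.8 that was well above background on all 12 arrays. Its levels were -4.42, -4.65 and -4.41 in GR+MDFIC cells with Dex, against -4.64, -4.49 and -4.72 with vehicle. In GR cells they were -4.78, -4.83 and -5.04 with Dex, against -4.59, -4.68 and -4.93 with vehicle. Dex and vehicle arrays overlapped in both kinds of cell. The log2 difference was 0.12 (95% interval -0.13 to 0.37) in GR+MDFIC cells and -0.15 (95% interval -0.41 to 0.10) in GR cells, so the data do not settle its direction.

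Of the SPRED genes, SPRED2 fell with Dex in GR+MDFIC cells to 0.762 of the vehicle level, and SPRED1 did not pass the test. The brighter SPRED2 probe stood at -1.64, -1.68 and -1.52 in GR+MDFIC cells with Dex, against -1.17, -1.27 and -1.22 with vehicle. In GR cells it stood at -1.45, -1.52 and -1.31 with Dex, against -1.51, -1.26 and -1.28 with vehicle. Dex and vehicle were apart in GR+MDFIC cells and overlapped in GR cells.

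The log2 difference of SPRED2 with Dex was -0.39 ± 0.08 in GR+MDFIC cells (SE, limma, Benjamini-Hochberg adjusted p = 0.0125) and -0.08 ± 0.08 in GR cells (SE, limma, Benjamini-Hochberg adjusted p = 0.699). Within slide 3 it was again -0.39, but it did not pass with slide as a block (limma, Benjamini-Hochberg adjusted p = 0.186). It also missed the threshold without GR+MDFIC vehicle replicate 1 (-0.36, limma, Benjamini-Hochberg adjusted p = 0.0515). The other SPRED2 probe was not well above background on any of the 12 arrays, with a processed signal of at most 11.1, and was not tested.

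SPRED1 was read by 2 probes, and neither passed with Dex in either kind of cell. The brighter one stood at -0.66, -0.42 and -0.40 in GR+MDFIC cells with Dex, against -0.68, -0.62 and -0.28 with vehicle, the last on slide 3. In GR cells it stood at -0.64, -0.70 and -0.50 with Dex, against -0.38, -0.37 and -0.45 with vehicle. Dex and vehicle overlapped in GR+MDFIC cells and were apart in GR cells, where Dex was lower by -0.21 on the log2 scale (95% interval -0.46 to 0.03, limma, Benjamini-Hochberg adjusted p = 0.342). In GR+MDFIC cells the difference was 0.03 over all arrays and -0.21 within slide 3, so its sign followed the vehicle arrays of slide 2. The dimmer probe gave -0.36 in GR+MDFIC cells and -0.03 in GR cells (limma, Benjamini-Hochberg adjusted p = 0.12 in GR+MDFIC cells and 0.95 in GR cells). Within slide 3 it gave -0.37, the same direction as the brighter probe there, and a difference between the probes was not tested.

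Counted over the 6 genes, 1 rose (ERRFI1) and 2 fell (SPRY2 and SPRED2) with Dex in GR+MDFIC cells, where 6.6% of all accessions tested rose and 6.94% fell. In GR cells 1 rose (ERRFI1) and 0 fell, where 4.4% of all accessions rose and 2.77% fell. At an unadjusted p under 0.05 in limma the count of falls in GR cells was also 0. The median log2 difference of the 6 genes was 0.02 in GR+MDFIC cells and -0.09 in GR cells, against -0.01 and 0.01 over all accessions tested. With slide as a block ERRFI1 was the 1 gene of the 6 called in each kind of cell, where 3.41% of all accessions were called in GR+MDFIC cells and 3.56% in GR cells.

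**Figure D2:**
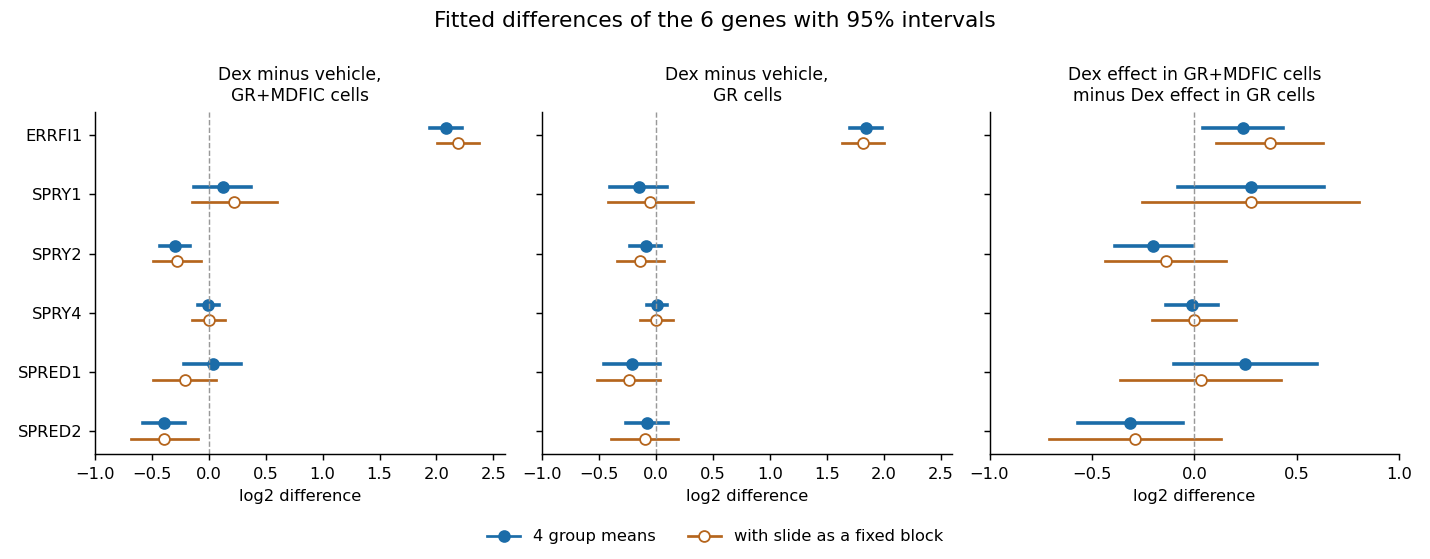
Fitted log2 differences of the 6 genes with 95% intervals (x axis: log2 difference; y axis: gene), for Dex minus vehicle in GR+MDFIC cells, in GR cells, and for the difference of these effects. Filled points are from the 4 group means and open points from the fit with slide as a block; ERRFI1 lies near 2 in both kinds of cell and the intervals of the other 5 genes lie between -0.69 and 0.60 for the Dex effects.

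Whether MDFIC altered the Dex response of these genes was tested as the difference between the Dex effects. None of the 6 passed in limma, where 0.0589% of all accessions passed, although 3 had an unadjusted p under 0.05. The share of all accessions under that unadjusted threshold was not counted. For ERRFI1 the effect was larger by 0.24 in GR+MDFIC cells (95% interval 0.04 to 0.43, limma, Benjamini-Hochberg adjusted p = 0.497). For SPRY2 the difference was -0.20 (95% interval -0.39 to -0.01, limma, Benjamini-Hochberg adjusted p = 0.501), and for SPRED2 -0.31 (95% interval -0.57 to -0.06, limma, Benjamini-Hochberg adjusted p = 0.497). With slide as a block the difference was 0.37 for ERRFI1 (95% interval 0.11 to 0.63), and it did not pass. In that fit it was -0.14 for SPRY2 (95% interval -0.43 to 0.15) and -0.29 for SPRED2 (95% interval -0.71 to 0.13). A fall called in GR+MDFIC cells and missed in GR cells is thus not shown to differ between them. The differences for SPRY1, SPRED1 and SPRY4 were 0.27, 0.25 and -0.01, and their 95% intervals all held 0.

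Set against GR cells directly, GR+MDFIC cells had ERRFI1 at nearly the same level with vehicle, at 2.10 against 2.07 (log2 difference 0.03, 95% interval -0.11 to 0.17). No slide held vehicle arrays of both kinds of cell, so kind of cell and slide cannot be told apart in vehicle. With slide as a block the ERRFI1 difference was 0.05, with a wider 95% interval of -0.20 to 0.29. In vehicle none of the 6 genes passed in limma, where 0.585% of all accessions were higher and 0.299% lower, and 1 gene, SPRY4, had an unadjusted p under 0.05. With Dex ERRFI1 was 1.21-fold higher in GR+MDFIC than in GR cells, with all 3 arrays of GR+MDFIC cells above all 3 of GR cells (log2 difference 0.27 ± 0.06 SE, limma, Benjamini-Hochberg adjusted p = 0.0398). In that comparison 2.65% of all accessions were higher and 2.9% lower. All Dex arrays of GR+MDFIC cells were on slide 3 and no Dex array of GR cells was, so this difference cannot be told apart from one between slides. With slide as a block, which links the groups through other arrays, it was 0.42 and did not pass (limma, Benjamini-Hochberg adjusted p = 0.428). The call was lost in 15 of 26 alternatives, among them leaving out any single array of GR+MDFIC Dex, GR Dex or GR vehicle cells (log2 difference 0.25 to 0.29).

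The other 5 genes did not pass between GR+MDFIC and GR cells with Dex. SPRY1 came nearest, at -4.49 in GR+MDFIC cells and -4.89 in GR cells (log2 difference 0.39, 95% interval 0.14 to 0.64, limma, Benjamini-Hochberg adjusted p = 0.0689). At an unadjusted p under 0.05 in limma, 3 of the 6 genes were higher with Dex, ERRFI1, SPRY1 and SPRY4. In the same comparison 2 were lower, SPRY2 at -0.13 and SPRED2 at -0.18. The share of all accessions under that unadjusted threshold was not counted. SPRY4 was higher by 0.13 in vehicle and by 0.12 with Dex in GR+MDFIC cells, a small offset that did not pass (limma, Benjamini-Hochberg adjusted p = 0.152 and 0.0982). For SPRY4 all 6 GR+MDFIC arrays lay above all 6 GR arrays, while for SPRY1 the vehicle arrays of the 2 kinds of cell overlapped. No slide held arrays of both kinds of cell under the same treatment, so these offsets cannot be told apart from differences between slides. With slide as a block SPRY4 was higher by 0.12 in vehicle and with Dex (limma, Benjamini-Hochberg adjusted p = 0.651 and 0.826). SPRY1 was higher by 0.60 with Dex in that fit and did not pass (limma, Benjamini-Hochberg adjusted p = 0.68).

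The rest of the pathway was read through lists of accessions entered by hand from general knowledge, which the files do not annotate. These transcripts are therefore given by accession, and their roles rest on the lists. The lists were chosen with earlier results of these data known, so their counts are a description and no independent support. Of 12 transcripts listed as ones that ERK signalling raises, 9 fell and 0 rose with Dex in GR+MDFIC cells, and 7 fell and 0 rose in GR cells. Over all accessions 6.94% fell in GR+MDFIC cells and 2.77% in GR cells. At an unadjusted p under 0.05 in limma, still 0 of the 12 were higher in either. Their median log2 difference was -0.50 in GR+MDFIC cells and -0.31 in GR cells. All 12 fitted differences were below 0 in both kinds of cell, 3 fell in each with slide as a block (where 3.41% of all accessions were called in GR+MDFIC cells and 3.56% in GR cells, in either direction), and none passed the test of the difference between the Dex effects, where 2 had an unadjusted p under 0.05.

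The falls in that list were largest for NM_003897, at -1.19 in GR+MDFIC cells (log2 difference), and it also fell in GR cells. NM_001964 fell by 0.88 on the log2 scale in GR+MDFIC cells and by 0.87 in GR cells, and NM_005438 by 0.67 and 0.68 in the same order. These 3 also fell with slide as a block, and the other falls of this list did not pass in that fit. NM_002309 fell by 0.43 and 0.48, NM_004431 by 0.57 and 0.40, NM_004454 by 0.49 and 0.26, and NM_002467 by 0.25 and 0.24, each in GR+MDFIC cells first. NM_005252 and NM_004956 fell in GR+MDFIC cells, by 0.52 and 0.59, while in GR cells they were at -0.25 and -0.23 and did not pass.

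Of 12 other negative regulators of the pathway, 2 rose and 4 fell in GR+MDFIC cells, where 6.6% of all accessions rose and 6.94% fell. In GR cells 1 rose and 3 fell, where 4.4% of all accessions rose and 2.77% fell. With slide as a block 1 rose and 2 fell in GR+MDFIC cells, and 1 rose and 1 fell in GR cells. In that fit 3.41% of all accessions were called in GR+MDFIC cells and 3.56% in GR cells, in either direction. NM_170662 rose by 1.15 in GR+MDFIC cells and by 1.01 in GR cells (log2 difference), and NM_001946 fell by 0.66 and 0.58, and both kept their calls with the block. NM_004419 fell by 0.50 in GR+MDFIC cells and by 0.53 in GR cells, and with the block its call was lost in GR cells (limma, Benjamini-Hochberg adjusted p = 0.055). NM_001394 fell by 0.43 in each, and with the block its call was lost in GR+MDFIC cells (limma, Benjamini-Hochberg adjusted p = 0.052) and in GR cells (limma, Benjamini-Hochberg adjusted p = 0.122).

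Of 10 receptors and ligands, 3 fell in GR+MDFIC cells and 2 in GR cells, against the same shares of all accessions, 6.94% and 2.77%. With slide as a block 1 fell in each, where 3.41% of all accessions were called in GR+MDFIC cells and 3.56% in GR cells, in either direction. None rose, and 0 were higher at an unadjusted p under 0.05 in limma, where 3 were lower in GR+MDFIC cells and 4 in GR cells. NM_001945 fell by 0.50 in GR+MDFIC cells and by 0.36 in GR cells and kept its calls with the block. NM_001657 fell by 0.31 in GR+MDFIC cells and by 0.35 in GR cells, and with the block both calls were lost (limma, Benjamini-Hochberg adjusted p = 0.44 in GR+MDFIC cells and 0.122 in GR cells). Of 16 adaptors and RAS, RAF, MEK and ERK genes, 1 fell in each kind of cell, where 6.94% of all accessions fell in GR+MDFIC cells and 2.77% in GR cells. It was NM_004333, which fell by 0.21 in GR+MDFIC cells and by 0.24 in GR cells, and with the block both calls were lost (limma, Benjamini-Hochberg adjusted p = 0.106 in GR+MDFIC cells and 0.168 in GR cells). None of the 16 rose, also at an unadjusted p under 0.05 in limma, where 3 were lower in GR+MDFIC cells and 2 in GR cells. The share of all accessions under that unadjusted threshold was not counted. NM_006654 had the largest difference of this list, -1.40 in GR+MDFIC cells, and did not pass (limma, Benjamini-Hochberg adjusted p = 0.0628). It was at 0.08 in GR cells, and at -0.40 in GR+MDFIC cells with slide as a block.

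**Figure D3:**
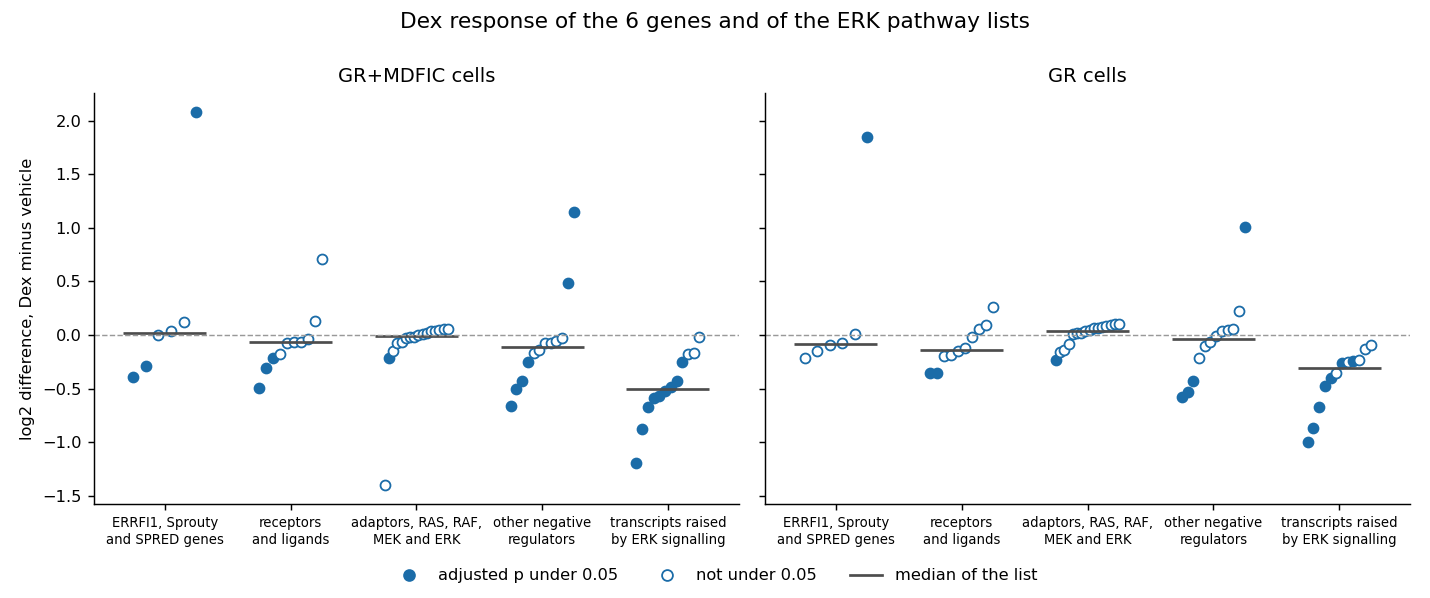
Log2 difference with Dex (y axis, Dex minus vehicle) in GR+MDFIC cells and in GR cells for the 6 genes and 4 lists of the ERK pathway (x axis); each point is 1 accession, filled where the adjusted p was under 0.05, and lines are medians. ERRFI1 is the highest point in both panels, and all 12 transcripts listed as raised by ERK signalling lie below 0.

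By the Pearson correlation over the 12 arrays, the non-member NM accessions most like ERRFI1 were NM_004816 (r = 0.998) and NM_025106 (r = 0.998), out of 16122 compared. Both rose with Dex by less than ERRFI1 did, with log2 differences of 1.12 and 1.18 in GR+MDFIC cells and 1.04 and 1.08 in GR cells. NM_153426 (r = 0.959) and NM_199040 (r = 0.957) were most like SPRY2, and NM_015084 (r = 0.966) and NM_018119 (r = 0.965) most like SPRED2. The nearest to SPRY1, SPRY4 and SPRED1 were NM_019040 (r = 0.944), NM_019103 (r = 0.938) and NM_000259 (r = 0.918). The arrays share slides and groups, and each pair was picked as the highest of many, so these correlations describe the likeness and carry no test.

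The calls differed in how far they depended on single choices. ERRFI1 kept its call with Dex in all 26 alternatives run in GR+MDFIC cells, with log2 differences from 2.03 to 2.20, and in all 27 run in GR cells, from 1.70 to 1.88. The outer values 2.20 and 1.70 came from averaging the probes. That average takes in the dim ERRFI1 probe, so the calls kept under it add no support. SPRY2 and SPRED2 kept theirs in GR+MDFIC cells in 24 of 26 each, with log2 differences from -0.34 to -0.16 and from -0.44 to -0.24. One of these alternatives leaves out the vehicle array of GR+MDFIC cells on slide 3, after which Dex and vehicle of those cells lie wholly on different slides and 26.6% of all accessions are called. Treatment and slide cannot be told apart there, so the calls of ERRFI1, SPRY2 and SPRED2 under it are no support. In GR cells, leaving out the Dex array on slide 1 likewise puts Dex and vehicle wholly on different slides. The ERRFI1 call kept in GR cells without that array is no support either. Several other alternatives could not move a member's difference. The deposited series table held the same values, and no member spot was an outlier. Leaving out an array of the other kind of cell changed only the estimate of the spread. Calls kept under those alternatives add little, so the counts overstate how far the calls were tried.

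**Figure D4:**
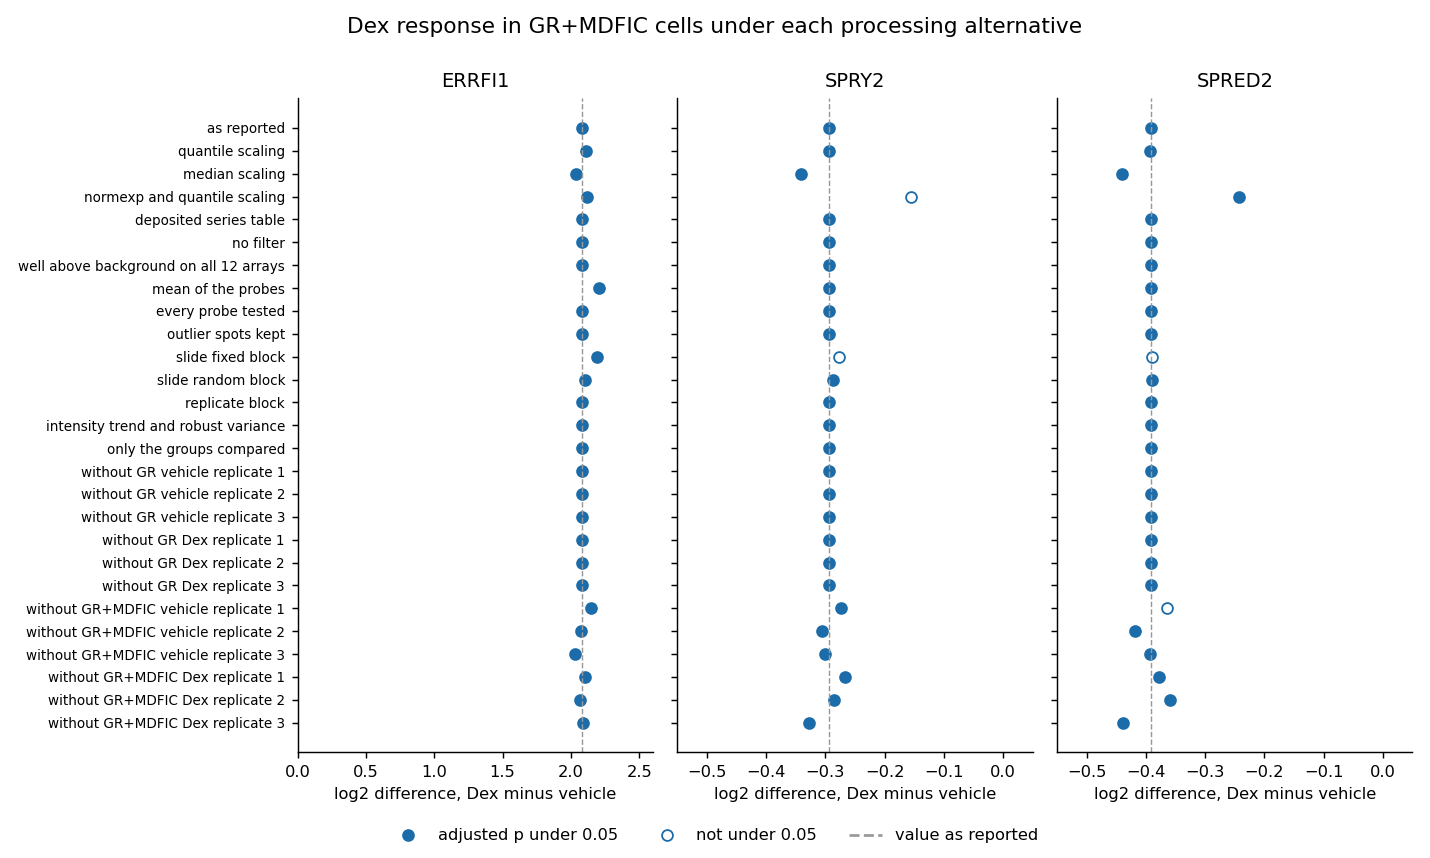
Log2 difference with Dex in GR+MDFIC cells (x axis) for ERRFI1, SPRY2 and SPRED2 under each alternative (y axis), filled where the adjusted p was under 0.05; the dashed line is the value as reported. All ERRFI1 points are filled; 2 points each are open for SPRY2 and SPRED2, and the slide block is among them for both.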

How the data were processed

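RNA of the 12 cultures was labelled with Cy3 from 500 ng of total RNA and hybridised to 1 array each, per the labels. The deposited values are linear intensities of single spots. The file headers name Agilent Feature Extraction (12.0.0.7 for slides 1 and 2, 12.0.3.1 for slide 3; version 12 in the submitters' processing notes), whose processed signal is background-subtracted and detrended within the array, and array percentiles still differed. The deposited flags, other values of 0 or 1, mark spots well above background, saturated or outlying, per the file headers. The deposited series table held the same values (largest difference 0).

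Processed signals were taken to log2 minus each array's 75th percentile over non-control spots. Outlier spots were set to missing, none of them a member's. The filter asked for a signal well above background in all 3 replicates of 1 group or more, and at least 2 unflagged arrays in each group. The brightest of the 30179 probes kept stood for each of 23757 accessions, and 8 of the 9 member probes passed. Group means of all 12 arrays were fitted in limma 3.58.1 (R 4.3.3) with 8 residual degrees of freedom, or 6 with slide as a block. Two-sided tests with a Benjamini-Hochberg adjusted p under 0.05 over all accessions were calls. The fit was tested on simulated data that held no difference between slides, so that trial cannot show how slide affects the calls. Figures were drawn with matplotlib 3.10.9 (Python 3.11.15). Same-numbered replicates did not deviate together (r from -0.114 to 0.0624 over 12 pairs), so numbers were not taken as pairs. The number of arrays limits the precision.

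Members were named by the accession rule, and every other transcript by its accession. Members, lists and tests were chosen with earlier results of these data known. In the lists, transcripts called in both Dex comparisons are named, and those called in GR+MDFIC cells alone among ERK-raised transcripts were added after their values were seen. Alternatives covered scaling, background, filter, probe choice, outlier spots, slide and replicate blocks, the arrays fitted and the variance model.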

Additional observations from a re-analysis of the deposited data

How the results depend on the processing

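Dex in GR cells called 1 of the 6 genes, MDFIC in vehicle called 0 and the difference of the Dex effects called 0 under every alternative run. Dex in GR+MDFIC cells called 3, 2 with normexp background correction and quantile scaling together, and 1 with slide as a fixed block. Leaving out 1 array gave 2 to 3. MDFIC in Dex called 1 gene, ERRFI1, and 0 with median scaling, no filter, averaged probes, a fixed slide block, a random slide block or the replicate block, and leaving out 1 array gave 0 to 1. For ERRFI1 that call was lost without any single array of 3 groups, GR+MDFIC Dex, GR Dex and GR vehicle (limma, Benjamini-Hochberg adjusted p from 0.053 to 0.107). No call changed direction. The replicate block left the other counts as they were, at 1, 3, 0 and 0. The cause of these changes was not tested.

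Over all accessions the share called with Dex ran from 3.41% with the slide block to 26.6% without GR+MDFIC vehicle replicate 3 in GR+MDFIC cells, against 13.5% as reported, and from 3.56% to 9.02% in GR cells, against 7.17%. For MDFIC it ran from 0.139% to 2.38% in vehicle, against 0.884%, and from 0.202% to 13.1% in Dex, against 5.54%. For the difference of Dex effects it ran from 0.00842% to 7.56%. Dim signal limits SPRY1 and the second probes of ERRFI1 and SPRED2.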
